A study of Mus musculus with 2 samples.

Results

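The metabotropic glutamate receptor genes Grm2, Grm3, Grm4, Grm5, Grm6, Grm7 and Grm8 were examined in open chromatin maps of mouse cerebral cortex. The 7 genes were taken by name from the GENCODE M21 annotation, out of 21938 protein-coding genes placed on the assembled chromosomes. DNase-seq, in which DNase I cuts DNA that is not covered by nucleosomes and the cut ends are sequenced, was performed on left cerebral cortex of male B6CASTF1/J mice aged 2 months. These animals are F1 hybrids of C57BL/6J and CAST/EiJ, untreated as far as the labels say. There were 2 samples, replicates 1 and 2 of a single group, with no second tissue or treatment, so no test was possible and values of both libraries are given side by side.

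Metabotropic glutamate receptors are class C G protein-coupled receptors that answer glutamate more slowly than ion channel receptors do. Group I receptors, among them Grm5, couple to Gq and phospholipase C and lie mainly on postsynaptic spines. Group II (Grm2, Grm3) and group III (Grm4, Grm6, Grm7, Grm8) couple to Gi and Go, lower cyclic AMP and, in neurons, mostly restrain transmitter release from presynaptic terminals. Grm3 is also abundant in astrocytes, and Grm6 is known for the light response of retinal ON bipolar cells. In bulk tissue, fewer cells of a type and less accessibility per cell cannot be told apart.

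Replicate 1 had 63928 peaks and replicate 2 had 76440, with median heights of 0.915 and 0.689. Peak heights are the authors' own values, with a scaling that the sources used here do not give, and the sequencing depth is unknown. Among marker genes of the tissue, promoters of 4 of 6 cortical neuron genes had peaks in both libraries (6 of 6 in replicate 1), as did 3 of 4 astrocyte genes and 2 of 3 oligodendrocyte genes. For 3 interneuron genes (Gad1, Gad2, Slc32a1) a promoter peak was present in replicate 1 and absent in replicate 2. None of 3 microglia genes and none of 4 genes of other tissues (Alb, Myh6, Hoxa9, Hoxb9) had a promoter peak in either library.

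Promoters were windows reaching 500 bp either way from each transcription start site (TSS) in the annotation, and a gene was called accessible where both libraries listed a peak inside such a window, not necessarily at the same TSS. Grm3, Grm5 and Grm7 were accessible, 3 of 7 receptor genes, against 56.2% of all protein-coding genes. In replicate 1 alone the receptor count was 5, because Grm4 and Grm8 also had a peak, against 61.6% of all genes. In replicate 2 alone it was 3, against 57.1% of all genes. A promoter peak in replicate 1 without one in replicate 2 was found for 2 receptor genes and for 5.37% of all genes. Grm2 and Grm6 had no promoter peak in either library. The median promoter height over the 3 accessible receptor genes was 1.53 in replicate 1 and 0.797 in replicate 2, and over all accessible genes it was 3.73 in replicate 1 and 2.11 in replicate 2.

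**Figure D1:**
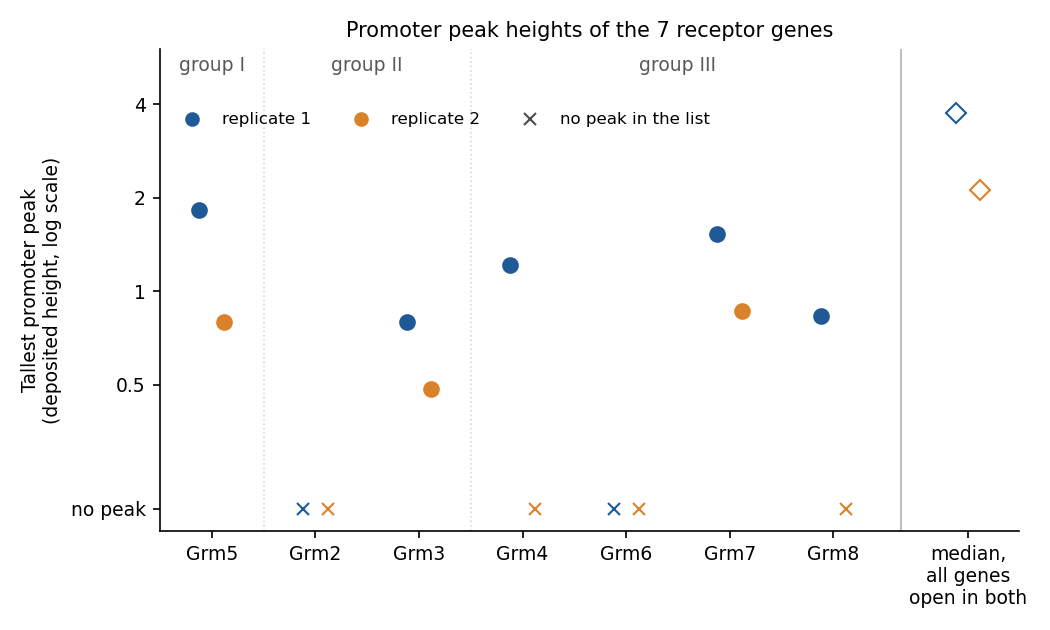
Tallest promoter peak (authors' height, log scale) of each receptor gene in replicate 1 and replicate 2, with crosses where no peak was listed and open diamonds for the median of all genes accessible in both. Every receptor promoter lies below the diamond of its replicate, and Grm5 is the highest in replicate 1 at 1.831.

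Grm5, the group I receptor of this list and a postsynaptic partner of Homer scaffolds, spans 551 kb on the plus strand (mm10, chr7:87584168-88134907). Its promoter height was 1.831 in replicate 1 and 0.7968 in replicate 2, a log2 ratio of replicate 1 over replicate 2 of 1.20. Those heights stood at percentiles 27.0 and 14.2 of promoter heights in their libraries. The peak lay at the upstream cluster of 4 TSSs, and the 3 TSSs of the downstream cluster, the first at position 87602441, had none. Footprints are short stretches protected from cutting inside open DNA. A shared footprint here is a stretch of bases that lay in a footprint of both libraries, so 1 footprint can hold several. The promoter region held 6 shared footprints. Their lengths of 2 to 8 bases are those of the overlaps, not of the footprints.

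A further shared region lay 1883 bp downstream of the nearest Grm5 TSS and overlapped an annotated exon. Its height was 1.287 in replicate 1 and 1.269 in replicate 2, so the libraries differed little here although they differed at the promoter. It held 4 shared footprints. Its central 300 bases are shown because they held bases footprinted in both libraries (GRCm38.p6, plus strand, chr7:87586311-87586610). Bases footprinted in both libraries are in capitals, as in all sequences that follow.
Grm5 downstream of the TSS: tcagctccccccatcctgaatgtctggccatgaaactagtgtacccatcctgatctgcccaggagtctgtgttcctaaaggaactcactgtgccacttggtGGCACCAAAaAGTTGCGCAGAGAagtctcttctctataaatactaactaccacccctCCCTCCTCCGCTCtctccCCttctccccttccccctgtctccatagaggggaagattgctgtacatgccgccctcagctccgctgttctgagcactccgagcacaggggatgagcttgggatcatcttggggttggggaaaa

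Distal regions lay over 2000 bp from every annotated TSS and were counted over the gene body extended by 20 kb at each end. Grm5 had 2 shared distal regions, both intronic, or 0.339 per 100 kb of locus. The taller one had heights of 0.7296 in replicate 1 and 0.9656 in replicate 2, percentile 48.4 among all shared distal regions by the geometric mean. The other, 443 kb from the 5′ end, had 0.4879 in replicate 1 and 0.5875 in replicate 2. A further 3 distal peaks were listed in replicate 1 alone and 13 in replicate 2 alone, the tallest at 1.015 in replicate 1 and 0.8103 in replicate 2.

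Grm2, a presynaptic group II autoreceptor, is a compact gene of 13 kb on the minus strand (chr9:106643095-106656082). None of its 4 TSSs had a peak. The lowest deposited false discovery rate (FDR) of the cut rate in its promoter windows was 0.0406 in replicate 1, and no base under 0.05 was listed in replicate 2. Among all genes without a promoter peak, 13.4% had a base under that FDR in replicate 1 and 13.8% in replicate 2.

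The Grm2 locus nevertheless held 2 shared distal regions, both higher in replicate 1. The taller, inside the neighbouring gene Tex264 and 19.6 kb upstream of the Grm2 5′ end, had heights of 2.029 in replicate 1 and 1.31 in replicate 2, percentile 89.8 among distal regions. Which gene it serves was not tested. The other lay at the 3′ end of Grm2, where it overlaps an exon and the gene Gm28111, with 1.964 in replicate 1 and 0.8508 in replicate 2. The region in Tex264 is shown for its 4 shared footprints, the longest of 24 bases (plus strand, chr9:106675541-106675760). They are overlaps between 3 footprints of replicate 1 and 4 of replicate 2.
Grm2 upstream region in Tex264: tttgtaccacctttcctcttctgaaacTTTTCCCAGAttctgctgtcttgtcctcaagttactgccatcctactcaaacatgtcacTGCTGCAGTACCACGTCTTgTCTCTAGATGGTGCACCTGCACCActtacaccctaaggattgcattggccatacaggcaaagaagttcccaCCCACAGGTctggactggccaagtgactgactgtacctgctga

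Grm3, the group II receptor shared by neurons and astrocytes, spans 240 kb on the minus strand (chr5:9485541-9725170) and has 1 annotated TSS. Its promoter peaks were low, 0.7944 in replicate 1 and 0.4862 in replicate 2, at percentiles 8.1 and 4.3. The replicate 2 value came from a peak centred at -489 bp from the TSS that replicate 1 lacked, and the replicate 2 peak that overlapped the tallest one of replicate 1 was 0.4389 high. With the longer list of replicate 2 the promoter height was 0.4592, so the peak of 0.4862 was not listed in the window there. A small peak inside the gene, at chr5:9724821-9724880, was found in both, with 0.4965 in replicate 1 and 0.4592 in replicate 2.

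The tallest region near the Grm3 TSS lay outside that window, 811 bp upstream. It had heights of 1.77 in replicate 1 and 2.363 in replicate 2, both above the promoter peak of the same library. The region had 7 footprints in replicate 1 and 4 in replicate 2, with 5 overlaps between them. Those 5 shared footprints were the most of any region near a receptor TSS apart from the 6 of the Grm5 promoter. The central 300 bases of the region follow on the strand of the gene (minus strand, chr5:9725991-9726290).
Grm3 upstream of the TSS: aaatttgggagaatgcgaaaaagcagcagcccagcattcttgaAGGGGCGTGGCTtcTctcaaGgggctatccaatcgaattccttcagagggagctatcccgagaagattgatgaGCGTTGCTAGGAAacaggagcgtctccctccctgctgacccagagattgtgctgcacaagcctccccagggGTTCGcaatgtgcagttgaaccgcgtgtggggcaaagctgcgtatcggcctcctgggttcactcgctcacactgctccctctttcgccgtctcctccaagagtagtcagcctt

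Grm3 had 5 shared distal regions, all intronic, or 1.788 per 100 kb. Among 998 genes of 200 kb or more, whose median was 4 regions and 0.854 per 100 kb, that density stood at percentile 82.7. The tallest, 63.1 kb from the 5′ end, had 1.028 in replicate 1 and 1.384 in replicate 2. The next, 229 kb away, had 0.7167 in replicate 1 and 1.249 in replicate 2, and the one after it, 154 kb away, had 0.531 in replicate 1 and 0.9251 in replicate 2. In 4 of the 5 regions replicate 2 was the higher library, and 6 more peaks were listed in replicate 2 alone. The tallest region is printed whole (plus strand, chr5:9661941-9662180). It held 1 shared footprint of 10 bases.
Grm3 intronic region: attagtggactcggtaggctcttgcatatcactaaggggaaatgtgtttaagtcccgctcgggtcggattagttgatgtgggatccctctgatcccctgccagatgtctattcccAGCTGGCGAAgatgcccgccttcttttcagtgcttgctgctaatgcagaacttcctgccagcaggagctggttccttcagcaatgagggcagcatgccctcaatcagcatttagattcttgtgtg

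Grm4, a presynaptic group III receptor best known from cerebellar granule cells, spans 99 kb on the minus strand (chr17:27422387-27521403). It had 3 promoter peaks in replicate 1, of 1.217, 0.8117 and 0.721, and none in replicate 2, where the longer list had none either. The tallest stood at percentile 16.6. The lowest promoter FDR was 4.34e-06 in replicate 1, and no base under 0.05 was listed in replicate 2. Its promoter windows reached the highest ratio of observed to expected CpG among the receptor genes, 0.952, percentile 93.7 of all genes. Granule cell markers gave a promoter peak in both libraries for 2 of 4 genes, Cbln3 and Pax6, while Zic1 and Atoh1 had none.

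By the geometric mean of both libraries, the tallest distal region of any receptor gene was intergenic, 13.5 kb upstream of Grm4, with 2.521 in replicate 1 and 1.107 in replicate 2, percentile 90.6. In replicate 2, 2 regions of Grm3 and 1 of Grm2 were taller. The other 2 shared distal regions had 0.7728 in replicate 1 and 1.013 in replicate 2 at the 3′ end, and 0.9023 in replicate 1 and 0.5942 in replicate 2 in an intron 40.7 kb from the 5′ end. The upstream region is shown for a shared footprint of 37 bases, the longest in the distal regions (plus strand, chr17:27534841-27535000). The RFX half-site GTTGCCA, read on the other strand, touched that footprint. So did AGGNGGC and a 12-base form, 2 spellings of the CTCF motif that were added after the data were seen.
Grm4 upstream region: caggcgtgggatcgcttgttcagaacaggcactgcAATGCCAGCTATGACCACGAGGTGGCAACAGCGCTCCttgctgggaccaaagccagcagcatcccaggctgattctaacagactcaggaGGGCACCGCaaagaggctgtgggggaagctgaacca

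Grm6, the receptor of retinal ON bipolar cells, spans 15.5 kb on the plus strand (chr11:50850685-50866208). It had no promoter peak and no distal peak in either library. The lowest promoter FDR was 0.00182 in replicate 1, with no base under 0.05 listed in replicate 2, and the longer list of replicate 1 held a peak of 0.4533. The 1 shared region in its locus belonged to the promoter of the neighbour Zfp879, at 4.516 in replicate 1 and 3.221 in replicate 2. Among bipolar cell markers, Vsx1 had a promoter peak in both libraries, with 1.11 in replicate 1 and 0.7293 in replicate 2. Isl1 had one of 0.9369 in replicate 1 alone, and Trpm1 had none in either.

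Grm7, a group III receptor placed at the active zone of presynaptic terminals, is the longest of these genes at 922 kb on the plus strand (chr6:110645581-111567230). Its promoter height was 1.533 in replicate 1 and 0.8643 in replicate 2, at percentiles 22.0 and 16.3, a log2 ratio of 0.83. The lowest promoter FDR was 5.36e-20 in replicate 1 and 3.88e-09 in replicate 2. The peaks lay at the upstream TSSs, and the downstream TSSs near position 111495715 had no peak. The annotated gene Gm20387 also has a TSS within 500 bp of that peak. Replicate 2 also had a peak of 0.5537 centred at -361 bp from the TSS, which replicate 1 lacked. A second region just inside the gene had 1.002 in replicate 1 and 0.601 in replicate 2, and a weaker one 1299 bp downstream had 0.8246 in replicate 1 and 0.5199 in replicate 2. The 233 bases before the first TSS are shown for their 3 shared footprints, which lie upstream of the peak called at the TSS (plus strand, chr6:110645348-110645580).
Grm7 promoter: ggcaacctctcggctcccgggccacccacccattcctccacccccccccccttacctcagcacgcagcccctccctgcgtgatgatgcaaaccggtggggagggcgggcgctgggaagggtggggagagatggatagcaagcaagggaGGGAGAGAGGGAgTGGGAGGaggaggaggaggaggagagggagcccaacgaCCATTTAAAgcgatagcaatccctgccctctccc

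Grm7 had 2 shared distal regions in introns, or 0.208 per 100 kb, percentile 13.6 among genes of 200 kb or more. The taller, 726 kb from the 5′ end, had 0.5872 in replicate 1 and 0.8643 in replicate 2, and the other, 409 kb away, had 0.4533 in replicate 1 and 0.6955 in replicate 2. Replicate 2 listed 15 further distal peaks that replicate 1 lacked, between 0.2971 and 0.9589 high. The central 300 bases of the taller shared region held 1 shared footprint of 11 bases (plus strand, chr6:111371894-111372193).
Grm7 intronic region: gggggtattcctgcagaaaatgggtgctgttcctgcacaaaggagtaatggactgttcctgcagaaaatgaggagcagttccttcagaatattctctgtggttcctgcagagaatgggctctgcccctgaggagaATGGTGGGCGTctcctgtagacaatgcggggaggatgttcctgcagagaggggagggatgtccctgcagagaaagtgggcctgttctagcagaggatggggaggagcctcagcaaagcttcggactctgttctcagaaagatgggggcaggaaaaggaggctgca

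Grm8, a presynaptic group III receptor with high affinity for glutamate, spans 860 kb on the minus strand (chr6:27275119-28135178). It had 3 promoter peaks in replicate 1, of 0.8332, 0.6346 and 0.639, and none in replicate 2. The longer list of replicate 2 held a promoter peak of 0.5064, and with the longer lists Grm8 became the fourth accessible receptor gene, against 61.0% of all genes. As at Grm3, a taller region lay outside the window, 783 bp upstream of the first TSS. Its height was 2.927 in replicate 1 and 1.762 in replicate 2, the tallest region in replicate 1 among those assigned to a receptor gene. It follows on the strand of the gene for its 2 shared footprints (minus strand, chr6:28135961-28136140).
Grm8 upstream of the TSS: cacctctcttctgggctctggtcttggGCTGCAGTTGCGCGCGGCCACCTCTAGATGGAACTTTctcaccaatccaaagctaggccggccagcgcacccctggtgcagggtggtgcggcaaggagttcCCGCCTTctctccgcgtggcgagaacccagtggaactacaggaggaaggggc

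Grm8 had the most shared distal regions of the receptor genes, 7, or 0.778 per 100 kb, percentile 45.0 among genes of 200 kb or more. All were low, between percentiles 2.2 and 32.4 of distal regions. The tallest by the geometric mean, by which distal regions are ordered for every gene, lay 488 kb from the 5′ end and had 0.4879 in replicate 1 and 0.9926 in replicate 2. The next 2 had 0.7685 in replicate 1, the highest of the 7 in that library, and 0.5807 in replicate 2 at 477 kb, and 0.3756 in replicate 1 and 0.9251 in replicate 2 at 43.1 kb. Replicate 2 was the higher library in 5 of 7. The tallest region is shown because the AP-1 motif TGANTCA touched the edge of 1 of its 2 shared footprints (plus strand, chr6:27646581-27646800). Both overlaps lay in the 1 footprint that replicate 2 had there, while replicate 1 had 2.
Grm8 intronic region: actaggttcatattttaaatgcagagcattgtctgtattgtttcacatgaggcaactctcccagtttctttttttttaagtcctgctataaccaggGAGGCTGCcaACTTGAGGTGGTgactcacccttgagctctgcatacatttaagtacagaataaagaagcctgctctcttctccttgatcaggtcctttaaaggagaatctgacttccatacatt

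**Figure D2:**
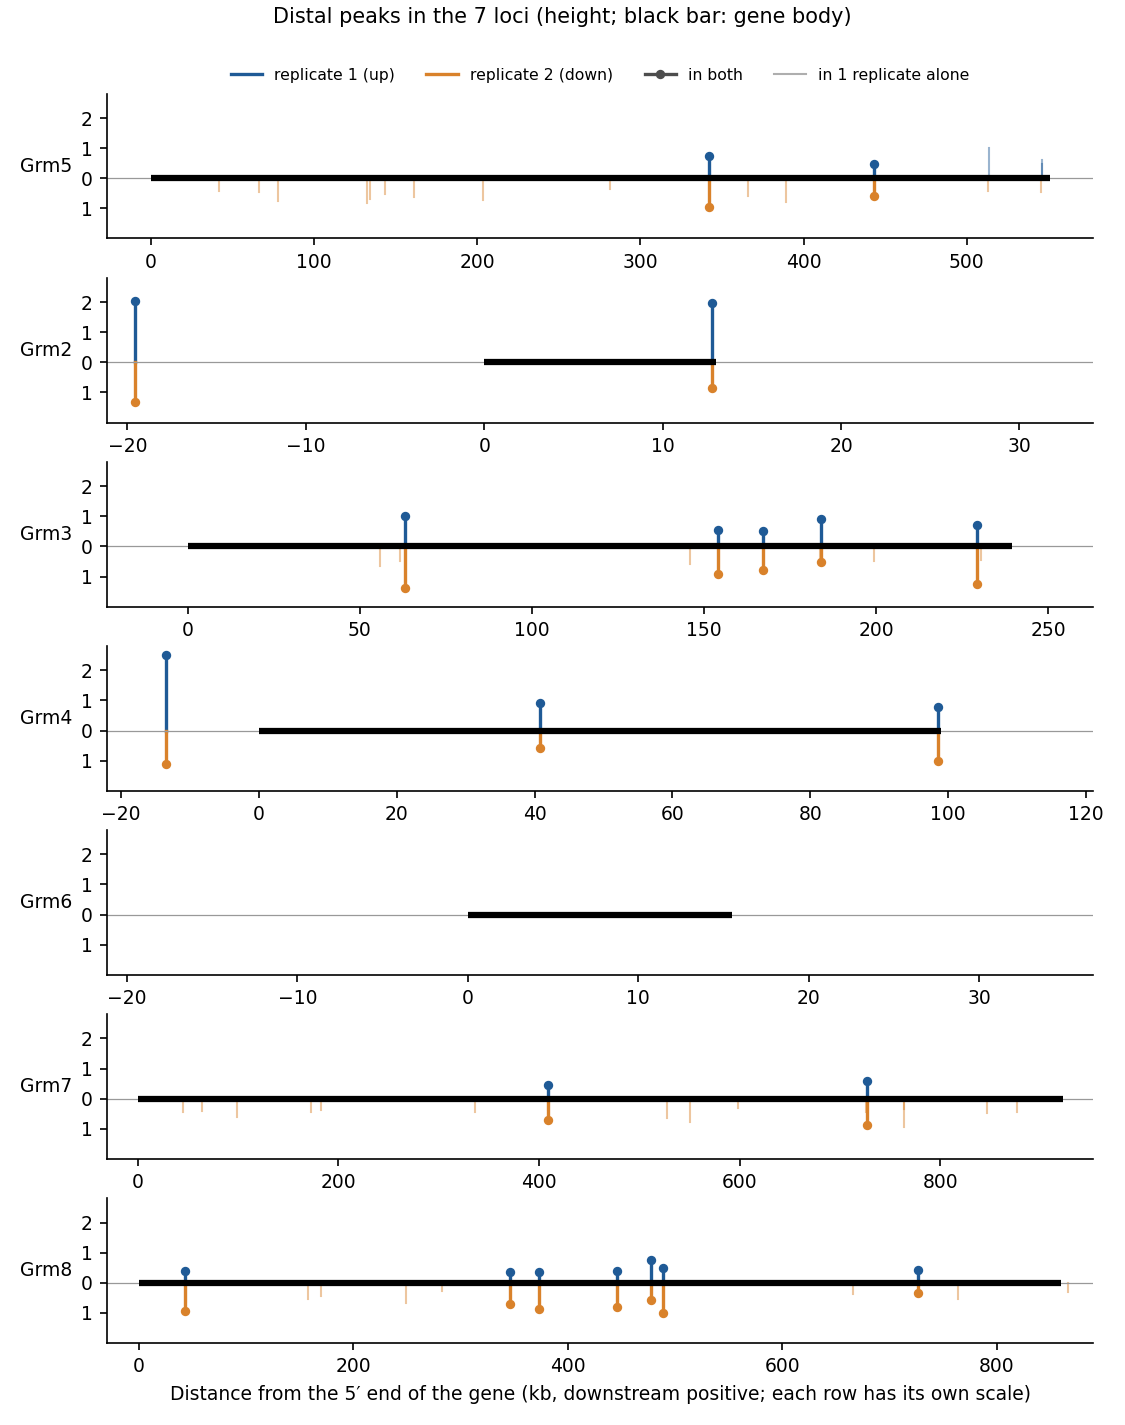
Distal peaks in the 7 loci by distance from the 5′ end of the gene (kb, each row on its own scale), with heights of replicate 1 drawn upward and of replicate 2 downward. Dots mark the 21 regions found in both libraries, and thin lines mark peaks of 1 library, most of them in replicate 2 across Grm3, Grm5, Grm7 and Grm8.

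Over the 7 loci there were 21 shared distal regions, in 6 of 7 genes, while 46.7% of all protein-coding genes had 1 or more. The median was 2 regions over the receptor genes, 0 over all genes and 4 over genes of 200 kb or more, to which Grm3, Grm5, Grm7 and Grm8 belong. Of the distal peaks in receptor loci, 3 of 24 in replicate 1 (12.5%) and 42 of 63 in replicate 2 (66.7%) had no partner in the other library. In the loci of all genes of 200 kb or more the shares were 30% in replicate 1 and 58.5% in replicate 2. With the longer list of the other library, 3 of those 3 and 17 of those 42 receptor peaks found a partner.

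The 2 libraries stood in opposite order at receptor promoters and at receptor distal regions. All 5 shared promoter regions were higher in replicate 1, with a median log2 ratio of 0.83, beside 0.76 and 93.1% higher in replicate 1 over all protein-coding promoter regions. Of the distal regions, 7 were higher in replicate 1 and 14 in replicate 2, with a median log2 ratio of -0.43 and quartiles of -0.80 and 0.40. Over all distal regions the median was 0.20, and 61.8% were higher in replicate 1. Over those inside genes of 200 kb or more it was 0.03, and 52.1% were higher in replicate 1. By gene, replicate 2 was higher in 2 of 2 regions of Grm5, 4 of 5 of Grm3, 2 of 2 of Grm7, 5 of 7 of Grm8, 1 of 3 of Grm4 and 0 of 2 of Grm2. With 1 library against 1 library this order is a description of these libraries, and the interneuron marker promoters also differed between them, with a part in this order that was not tested.

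**Figure D3:**
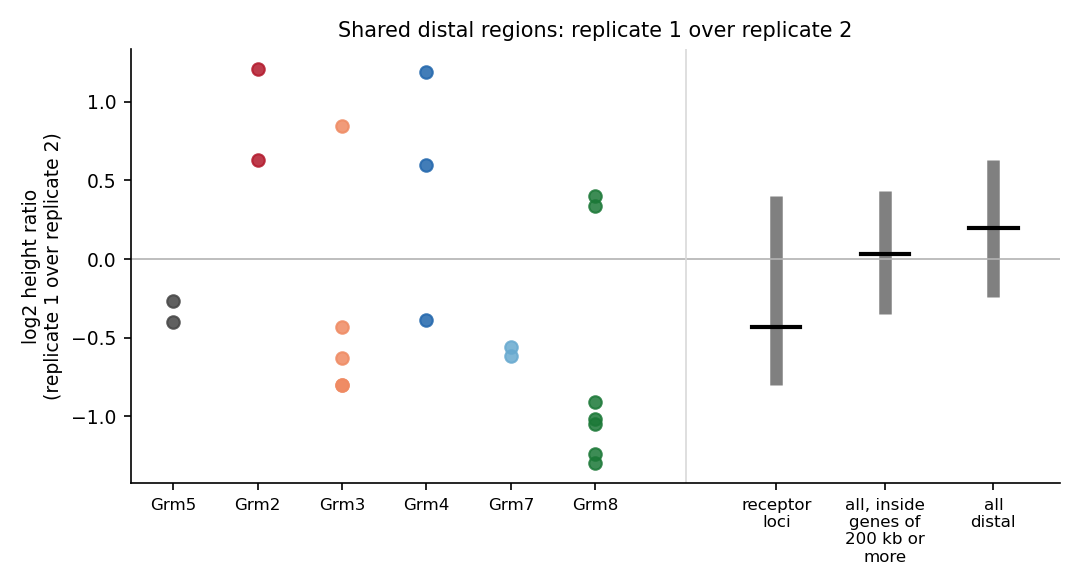
Log2 ratio of heights, replicate 1 over replicate 2, for each shared distal region by gene (points; Grm6 had none), beside the median (line) and quartiles (bar) of receptor loci, of all distal regions inside genes of 200 kb or more, and of all distal regions. The receptor median of -0.43 lies below the medians of 0.03 and 0.20.

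Shared footprints numbered 38 in the shared promoter and distal regions of the 7 loci, 7 at promoters and 31 in distal regions, leaving out the regions between 500 and 2000 bp from a TSS. Of the distal regions, 16 of 21 (76.2%) held 1 or more, against 81.2% of all distal regions. Per kb there were 5.77 shared footprints in receptor distal regions and 6.66 in all distal regions. At promoters, 2 of 5 receptor regions held a shared footprint, against 84.1% of all protein-coding promoter regions. These 5 regions belong to Grm3, Grm5 and Grm7, and 1 of them had no footprint in either library. Their median height was 1 in replicate 1 and 0.601 in replicate 2, against 2.77 and 1.57 over all promoter regions. The 3 shared footprints upstream of the Grm7 peak lie outside the called regions and were not counted.

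Motifs were searched on both strands in the 300 bp around the centre of each distal region. The NEUROD-type E-box CAGATG was in 6 of 21 receptor regions and in 30.3% of all distal regions. The RFX half-site GTTGCCA was in 3 of 21, against 7.18%, AP-1 in 1 of 21, against 18.5%, and MEF2, searched by its 10-base consensus, in 2 of 21, against 4.9%. In all, 3 spellings of the CTCF motif were used in turn: AGGGGGC was in 0 of 21 receptor regions and 10.8% of all, AGGNGGC in 4 of 21 and 33.4%, and a 12-base form in 3 of 21 and 21.4%. The last spelling was loosened after the sequences upstream of Grm4 and Grm8 had been read, so its match at Grm4 supports nothing. The spellings overlap one another, a match is a description of letters, and the absence of one says only that these letters are not in the window.

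The genes that work with these receptors were mostly open. Of 24 partner genes, 18 were accessible, against 56.2% of all genes. The partner list was chosen with earlier results of these data known. The median height of accessible partners was 3.89 in replicate 1 and 1.98 in replicate 2. Over all accessible genes it was 3.73 in replicate 1 and 2.11 in replicate 2. All 9 group I signalling genes were accessible. Gna11 (a Gq family alpha subunit) had 11.72 in replicate 1 and 5.909 in replicate 2. Homer1 (the scaffold that binds Grm5) had 6.424 in replicate 1 and 4.599 in replicate 2. Homer2 was the lowest of the 9 in both libraries, with 0.7901 in replicate 1 and 0.7023 in replicate 2.

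Among group II and III signalling genes 6 of 8 were accessible. Gnao1, the Go alpha subunit, had 4.663 in replicate 1 and 1.972 in replicate 2, and Pick1, which binds the tail of the Grm7 protein, had 5.608 in replicate 1 and 4.362 in replicate 2. Adcy1 (an adenylyl cyclase) had 1.407 and Elfn1 (a postsynaptic adhesion protein that binds group III receptors) had 1.028 in replicate 1, with no peak in replicate 2, the state also seen at Grm4 and Grm8.

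Of 7 genes of the retinal mGlu6 cascade, 3 were accessible: Rgs7, Rgs11 and Gnb5, which code for parts of G protein deactivating complexes. Trpm1 (the ion channel of the cascade), Gpr179, Nyx and Lrit3 had no promoter peak in either library. Among related receptors, accessible promoters were found for 2 of 2 GABA-B genes, 8 of 9 AMPA and kainate genes and 4 of 7 NMDA genes. Gabbr1 had 4.576 in replicate 1 and 2.579 in replicate 2, and Grin1 had 4.058 in replicate 1 and 2.289 in replicate 2, each above every metabotropic receptor promoter in the same library. Others lay below Grm5 and Grm7, with 0.7037 in replicate 1 and 0.4997 in replicate 2 at Gria3 and 0.7728 in replicate 1 and 0.5335 in replicate 2 at Grik1. The Grik3 peak, 1.036 high in replicate 1, was missing from replicate 2.

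**Figure D4:**
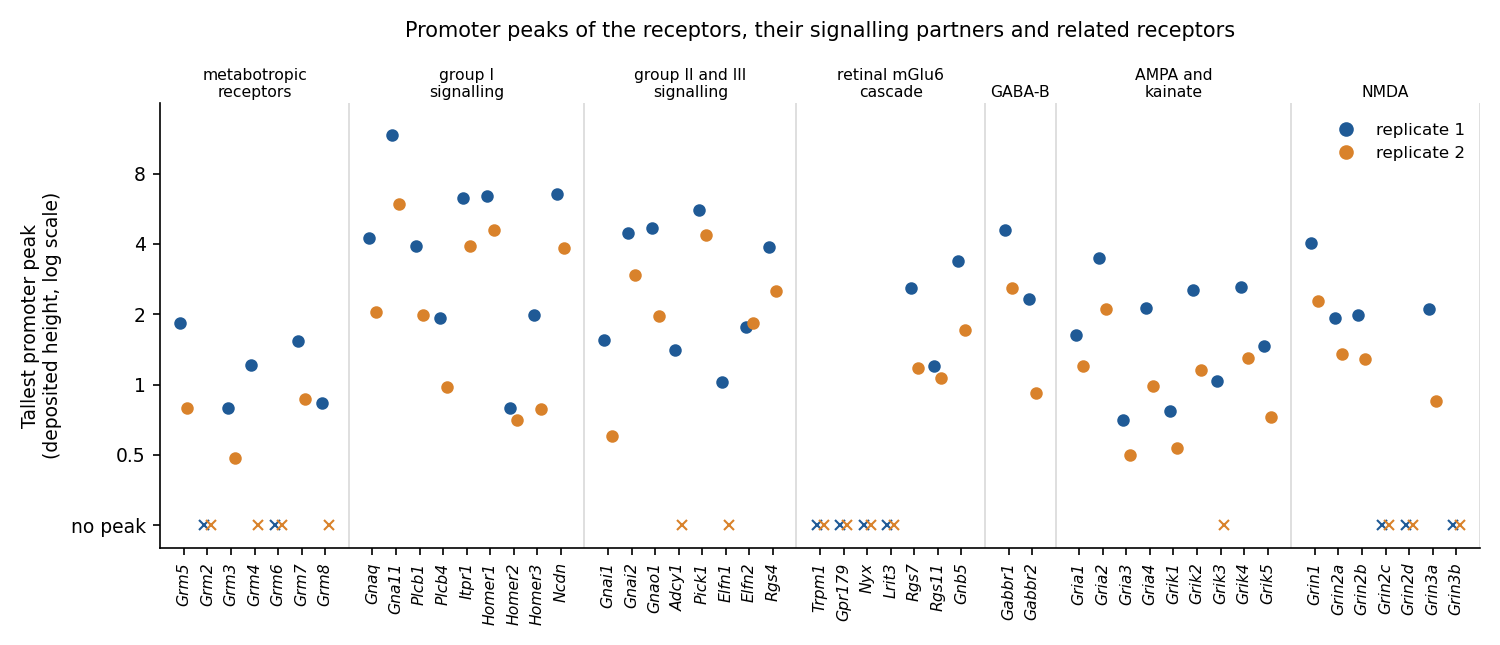
Tallest promoter peak (authors' height, log scale) in replicate 1 and replicate 2 for the metabotropic receptors, their signalling partners and related receptors, with crosses where no peak was listed. Group I signalling genes have peaks in both libraries for 9 of 9 genes, and 4 of 7 retinal cascade genes have crosses in both.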

How the data were processed

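Open chromatin was measured by DNase-seq in 2 samples of 1 group. The authors deposited 2 peak lists, 1 footprint list and 1 FDR track per replicate, on mm10 per the labels. Peaks were called per replicate, per the deposited file notes. Peak height is a signal value the authors deposited, with a scaling that the sources used here do not give. The FDR track holds deposited q-values (false discovery rates) of the cut rate, listed under 0.05. The deposited footprint lists carry the constant 0.01 in place of a score, so footprints were used as positions. The sources used here do not name the aligner, the callers, their settings or any correction for DNase I cutting preference. Reads of an F1 hybrid were placed on a reference of 1 parental strain, which can lower heights where the other parent differs, and this was not tested. No read counts were used, so depth and counting intervals are unknown.

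The shorter peak list of each replicate was used, with overlapping peaks joined. A region counted as shared when the replicates' peaks had at least 1 bp in common. Shared footprints were counted as the stretches where footprints of both replicates overlapped by at least 1 bp. Genes were from GENCODE M21 and sequence from GRCm38.p6 (RefSeq). The RefSeq promoter table held 5 of the 7 receptor genes. Scripts ran in Python 3.11.15 with numpy 2.4.6 and matplotlib 3.10.9, and the interval steps were tested on simulated data. Promoter height percentiles are ranks among protein-coding genes with a promoter peak in that replicate.

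Named genes were all 7 receptors, every promoter peak of theirs, up to 3 tallest shared distal regions per gene, and lists of partners, relatives and markers. The sequence of the tallest distal region of Grm5 and the values of 1 marker gene are not reported here. The members and lists were chosen with earlier results of these data known. After the data were seen, the comparison with genes of 200 kb or more was added, as were 2 further spellings of the CTCF motif, AGGNGGC and a 12-base form. The 12-base form was written after reading the sequences upstream of Grm4 and Grm8 and loosened until both matched. Replicates are described as biological, and with 1 group no test between conditions was made. Alternatives were the longer lists, other windows, flanks, overlaps and height limits, coding TSSs alone, and each replicate alone.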

Additional observations from a re-analysis of the deposited data

How the results depend on the processing

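The count of accessible receptor promoters, 3, beside 56.2% of all genes, was 4 with the longer peak lists (Grm8 added; 61.0% of all genes), 3 with TSSs of coding transcripts alone (54.6%), 2 in the upper 50% of each list by height (Grm5 and Grm7; 50.3%), and 5 with promoter windows of 2000 bp (Grm4 and Grm8 added, Grm4 through peaks at different TSSs in the 2 libraries; 59.8%). With 1 replicate left out it ranged between 3 and 5. The 21 shared distal regions became 47 with the longer lists, 13 where 50% of the length of both peaks had to overlap, and 4 in the upper 50% by height, and ranged between 24 and 63 with 1 replicate left out. They were 25 at over 500 bp from a TSS, 19 in the gene body alone and 25 with 50 kb on both sides. The 38 shared footprints became 19 where 50% of both lengths had to overlap and 50 with the longer lists, and ranged between 65 and 70 with 1 replicate left out. The median log2 ratio over the shared promoter and distal regions of the loci, replicate 1 over replicate 2, was -0.33, and -0.29 with the longer lists.

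Of 24 alternative promoter heights, 21 were counted as close and 3 as moved. Those 3 were all with 2000 bp: Grm3 to 1.77 in replicate 1 and 2.363 in replicate 2, and Grm8 to 2.927 in replicate 1. Grm5 in replicate 2 was counted as close although it rose from 0.7968 to 1.269 with 2000 bp, while in replicate 1 it stayed at 1.831. Of 14 alternative distal counts per gene, 5 moved. No paired analysis was possible because the 2 replicates belong to 1 group. Depth is unknown, so the absence of a low peak from 1 library cannot be read as closed chromatin.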
